A study of Rattus norvegicus with 3 samples.

Results

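The genes described are 10 genes of drug efflux and aldehyde oxidation. They were taken as every probe, control spots left out, whose RefSeq accession names Abcb1a, Abcb1b, Abcc1, Abcc3, Abcc4, Abcg2, Aldh1a1, Aldh1a3, Aldh2 or Aldh3a1. These 10 genes had 12 probes among 16745 probes of 13301 named genes, and each probe had a single spot on each array. RNA was measured on 1 one-color Agilent whole rat genome array for each of 3 cell types. COS1NR is a rat osteosarcoma cell line and MFH1NR is a rat malignant fibrous histiocytoma (MFH) cell line. Both were established from tumors induced in F344 rats by 4-HAQO (4-hydroxy quinolone 1-oxide in the study's methods), and both carry a p53 mutation per the study's methods. The mesenchymal stem cells (MSCs) were grown out of femur bone marrow of syngeneic rats on plastic, not sorted by surface markers, and in a medium with more serum than that of the sarcoma lines. No cell type received a drug, so that all values are levels in untreated culture. Each tumor type stands as 1 cell line, and with 1 array per cell type there is no replicate and no test of any difference.

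ABC transporters of this group are membrane pumps that use ATP to carry drugs and their conjugates out of the cell. P-glycoprotein (Abcb1), the multidrug resistance proteins of the Abcc family and Abcg2 are known for moving anticancer drugs such as doxorubicin, etoposide, methotrexate or topotecan. Aldehyde dehydrogenases (ALDHs) oxidize aldehydes to acids, and some of them inactivate aldehyde intermediates of the drugs cyclophosphamide and ifosfamide. Efflux of a dye by Abcg2 and a high ALDH activity are both used to sort cells with stem-like properties from tumors, including sarcomas. In the rat, P-glycoprotein is encoded by Abcb1a and Abcb1b, where the human genome has a single gene.

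The promoters of 4 transporter genes are shown. Abcb1a and Abcb1b are the pair of P-glycoprotein genes, whose levels did not follow the same order over the arrays, and Abcg2 and Abcc1 were both higher in MFH1NR than in COS1NR. Each is the stretch of 250 bases before the gene's start in RefSeq on GRCr8, read 5′ to 3′ on the gene's own strand. Capitals mark the GC box (GGGCGG), the CCAAT box (CCAAT) and the core of the xenobiotic response element (GCGTG), matched on either strand.
Abcb1a, chr4:26397649-26397898, minus strand: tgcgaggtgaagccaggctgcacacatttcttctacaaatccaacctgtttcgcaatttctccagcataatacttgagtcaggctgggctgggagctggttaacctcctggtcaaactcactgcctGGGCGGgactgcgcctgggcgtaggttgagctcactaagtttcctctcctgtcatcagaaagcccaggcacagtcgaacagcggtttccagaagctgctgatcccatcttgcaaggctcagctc
Abcb1b, chr4:26280030-26280279, minus strand: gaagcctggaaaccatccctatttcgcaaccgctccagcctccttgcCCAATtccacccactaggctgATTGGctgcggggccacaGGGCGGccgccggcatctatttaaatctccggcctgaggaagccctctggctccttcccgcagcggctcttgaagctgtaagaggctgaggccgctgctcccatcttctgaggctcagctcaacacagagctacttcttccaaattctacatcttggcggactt
Abcg2, chr4:89075224-89075473, plus strand: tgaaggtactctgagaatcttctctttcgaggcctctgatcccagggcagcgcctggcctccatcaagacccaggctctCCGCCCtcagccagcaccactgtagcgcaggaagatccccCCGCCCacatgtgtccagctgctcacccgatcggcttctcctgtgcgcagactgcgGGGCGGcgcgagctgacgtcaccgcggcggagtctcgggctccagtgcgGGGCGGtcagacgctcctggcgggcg
Abcc1, chr10:1162368-1162617, minus strand: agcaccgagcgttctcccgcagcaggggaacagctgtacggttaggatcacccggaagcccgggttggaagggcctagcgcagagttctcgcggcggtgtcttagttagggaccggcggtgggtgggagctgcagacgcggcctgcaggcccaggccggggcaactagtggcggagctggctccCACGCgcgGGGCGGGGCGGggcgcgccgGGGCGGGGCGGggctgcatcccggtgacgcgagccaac

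Abcb1a and Abcb1b lie next to each other on chromosome 4, with Abcb4, a phospholipid pump of bile, as the next protein-coding gene on the other side of Abcb1b. Their windows hold 54.0% and 58.0% of G and C bases, 1 GC box each, and 0 and 2 CCAAT boxes. The windows of Abcg2 and Abcc1 hold 67.2% and 72.8% of G and C bases and 4 GC boxes each, where overlapping matches were counted separately. Abcc1 also holds 1 core of the xenobiotic response element, the letters that the aryl hydrocarbon receptor and its partner bind. A promoter was at hand for 7 of the 10 genes: Abcb1a, Abcb1b, Abcc1, Abcc4, Abcg2, Aldh1a1 and Aldh1a3. A GC box was in 6 of the 7 and in 32.4% of all 27457 rat promoters of that length, a CCAAT box in 3 of the 7 and in 34.3%, and the xenobiotic response element core in 3 of the 7 and in 27.2%. The core of the antioxidant response element (TGACNNNGC) was in 0 of the 7 and in 10.2%. These are matches of letters in a window and say nothing of binding in these cells.

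Each level below is the processed intensity of a probe as a percent of the 75th percentile over the noncontrol spots of the same array. That percentile was an intensity of 589 for MSCs, 774 for COS1NR and 994 for MFH1NR. The value after ± is the error that the scanner software gives for that spot, which covers neither cultures nor labeling. The software calls a spot well above background or not, and this held for between 56.6% and 59.7% of spots on the 3 arrays. Where a probe had this call on 1 of 2 arrays, the ratio is a bound (at least N-fold), taken against the lowest level with the call on the dimmer array, or against the dim probe's own level where that was higher. The lowest such level was 3.05% for MSCs, 3.80% for COS1NR and 3.02% for MFH1NR. The arrays of COS1NR and MFH1NR were on the same slide and scan and that of MSCs on another, so that in the ratios to MSCs the slide and the cells cannot be told apart. Levels of different probes are not compared, because probes differ in how brightly they hybridize.

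Against MSCs, Abcg2 and Abcb1a were higher in both sarcoma lines and Aldh3a1 was lower in both. Abcc4 was lower in MFH1NR by 3.95-fold and in COS1NR by 1.83-fold. Abcc1 was lower in COS1NR alone, where MFH1NR lay close to MSCs. Of the 10 genes, 7 were well above background on the MSC array and 8 on the array of each sarcoma line, and a ratio could be formed for 8. At least 2-fold higher in COS1NR than in MSCs were 2 of the 8, Abcb1a and Abcg2, where 20.6% of all 9709 genes tested were. At least 2-fold lower were also 2 of the 8, Abcc1 and Aldh3a1, where 20% of all genes were. In MFH1NR, 2 of the 8 were at least 2-fold higher than in MSCs, again Abcb1a and Abcg2, where 19.3% of all 9822 genes tested were, and 3 of the 8 were at least 2-fold lower, Abcb1b, Abcc4 and Aldh3a1, where 21.6% of all genes were. With 8 genes, these counts do not set the group apart from all genes. Both comparisons share the MSC array. At least 2-fold higher in both lines were 2 of the 8, where 11.3% of all 9522 genes with both ratios were, and at least 2-fold lower in both was 1 of the 8, where 13.6% of all genes were. The median log2 ratio over the 8 was 0.08 in COS1NR and −0.64 in MFH1NR, beside 0.10 and 0.02 over all genes.

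**Figure D1:**
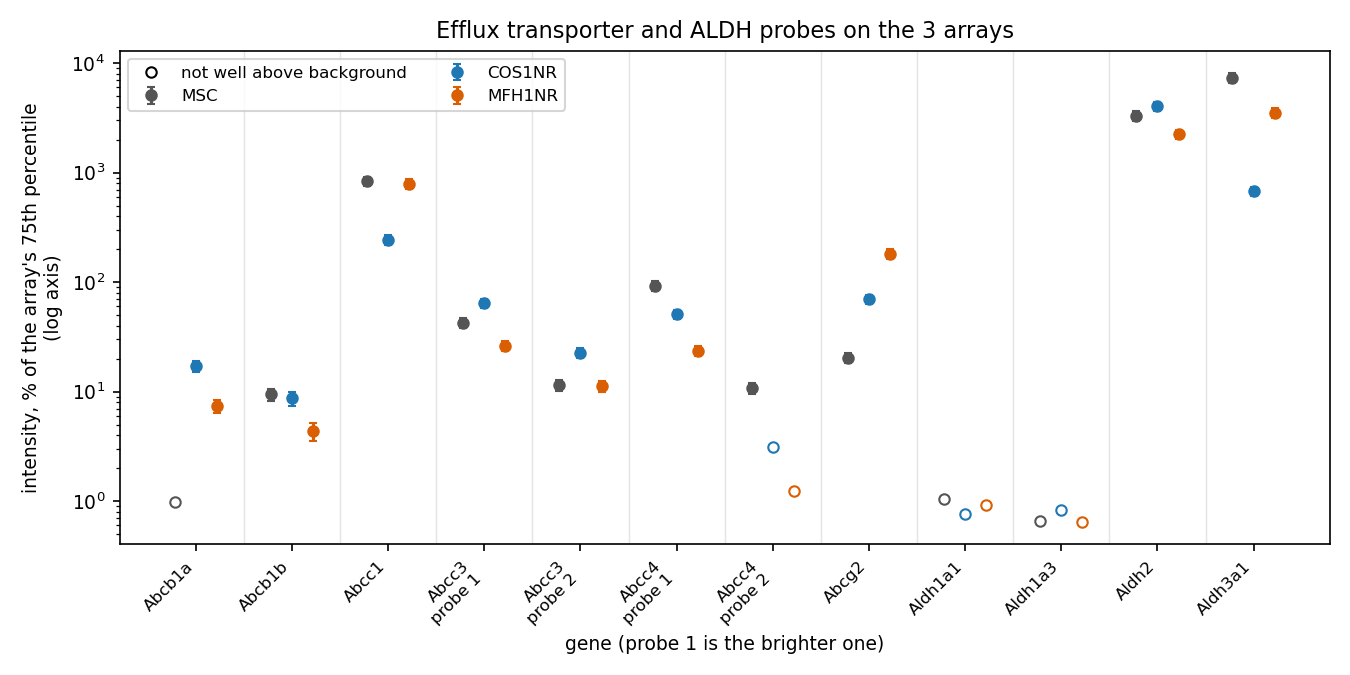
Level of each of the 12 probes on the arrays of MSCs, COS1NR and MFH1NR, as a percent of the array's 75th percentile on a log axis, with the software's error as bars on spots well above background and open symbols for spots that were not. The points of Abcg2 step up from 20.3% in MSCs to 180.7% in MFH1NR, those of Abcc4 step down in the same order, and all 6 points of Aldh1a1 and Aldh1a3 are open.

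Abcg2, the pump also called breast cancer resistance protein, had its lowest level in MSCs, at 20.3% ± 2.21, a higher one in COS1NR, at 69.6% ± 7.01, and the highest in MFH1NR, at 180.7% ± 18.1. All 3 spots were well above background. The log2 ratio to MSCs was 1.78 ± 0.21 in COS1NR, a 3.43-fold higher level, and 3.15 ± 0.21 in MFH1NR, an 8.90-fold higher level, where ± is the software's error carried to the ratio. Between the sarcoma lines, on the same slide, MFH1NR was 2.60-fold higher. Of the 10 genes, Abcg2 and Aldh3a1 were at least 2-fold apart in all 3 comparisons with every spot well above background, and Abcb1a was so with bounds.

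Abcb1a encodes P-glycoprotein and was dim on every array. Its level was 0.98% ± 0.79 in MSCs, where the spot was not well above background, 17.0% ± 1.90 in COS1NR and 7.37% ± 0.99 in MFH1NR. Against the detection limit of the MSC array the level in COS1NR was at least 5.58-fold higher and that in MFH1NR at least 2.42-fold higher. With another background correction (normexp, with an offset of 50) the bounds fell from log2 ratios of 2.48 and 1.27 to 1.08 and 0.29. Adding an offset by itself draws the ratios of dim spots toward 0, and its part in this and later normexp values was not tested. COS1NR was above MFH1NR by 2.31-fold. The neighbouring gene Abcb1b, which encodes the other rat P-glycoprotein, gave 9.45% ± 1.19 in MSCs, 8.65% ± 1.27 in COS1NR and 4.37% ± 0.85 in MFH1NR. Here COS1NR and MSCs were no further apart than the software's error, with a log2 ratio of −0.13 ± 0.28. MFH1NR was lower than MSCs by 2.16-fold and than COS1NR by 1.98-fold. The former fell short of 2-fold with no scaling, median, quantile and spike-in scaling and with normexp, at log2 ratios between −0.94 and −0.36. With spike-in scaling the log2 ratio of Abcb1b in MFH1NR to COS1NR moved from −0.98 to −0.19, within the software's error of 0.35. Under the main scaling the pair did not share an order: the Abcb1a spot was dimmest in MSCs and the Abcb1b spot was dimmest in MFH1NR. These genes and Abcb4 are close relatives in sequence. The probe sequences are not used here, so how far a probe also takes up RNA of its relatives was not tested.

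Abcc1, the multidrug resistance protein that exports glutathione conjugates and many drugs, was bright on all 3 arrays. It gave 832.7% ± 83.3 in MSCs, 242.7% ± 24.3 in COS1NR and 792.7% ± 79.3 in MFH1NR. MSCs and MFH1NR did not differ beyond the software's error, with a log2 ratio of −0.07 ± 0.20, while COS1NR was 3.43-fold lower than MSCs. MFH1NR was 3.27-fold higher than COS1NR, so that Abcc1 and Abcg2 were both higher in MFH1NR than in COS1NR.

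Abcc3 exports bile acids, glucuronide conjugates and drugs such as etoposide and methotrexate, and had a pair of probes. The brighter probe gave 42.6% ± 4.32 in MSCs, 64.3% ± 6.48 in COS1NR and 26.1% ± 2.69 in MFH1NR. The dimmer probe gave 11.5% ± 1.33 in MSCs, 22.5% ± 2.41 in COS1NR and 11.2% ± 1.32 in MFH1NR. Both probes put COS1NR highest, with log2 ratios to MSCs of 0.59 ± 0.21 and 0.97 ± 0.23, short of 2-fold. They disagreed on MFH1NR, where the log2 ratio to MSCs was −0.71 ± 0.21 by the brighter probe and −0.03 ± 0.24 by the dimmer one. MFH1NR was lower than COS1NR by 2.46-fold and 2.01-fold on the same slide. For scale, the log2 ratios of a gene's 2 brightest probes differed by a median of 0.28 for COS1NR over MSCs and 0.31 for MFH1NR over MSCs, across the 1895 genes in which both could be read.

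Abcc4 exports cyclic nucleotides, prostaglandins and nucleotide analogs, and also had a pair of probes. The brighter probe gave 92.9% ± 9.31 in MSCs, 50.8% ± 5.14 in COS1NR and 23.5% ± 2.43 in MFH1NR. The log2 ratio to MSCs was −0.87 ± 0.21 in COS1NR and −1.98 ± 0.21 in MFH1NR, and MFH1NR was 2.16-fold lower than COS1NR. The dimmer probe was well above background in MSCs alone, at 10.8% ± 1.24, and gave at least 2.84-fold lower levels in COS1NR and at least 3.57-fold lower levels in MFH1NR. Both probes placed MSCs highest.

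**Figure D2:**
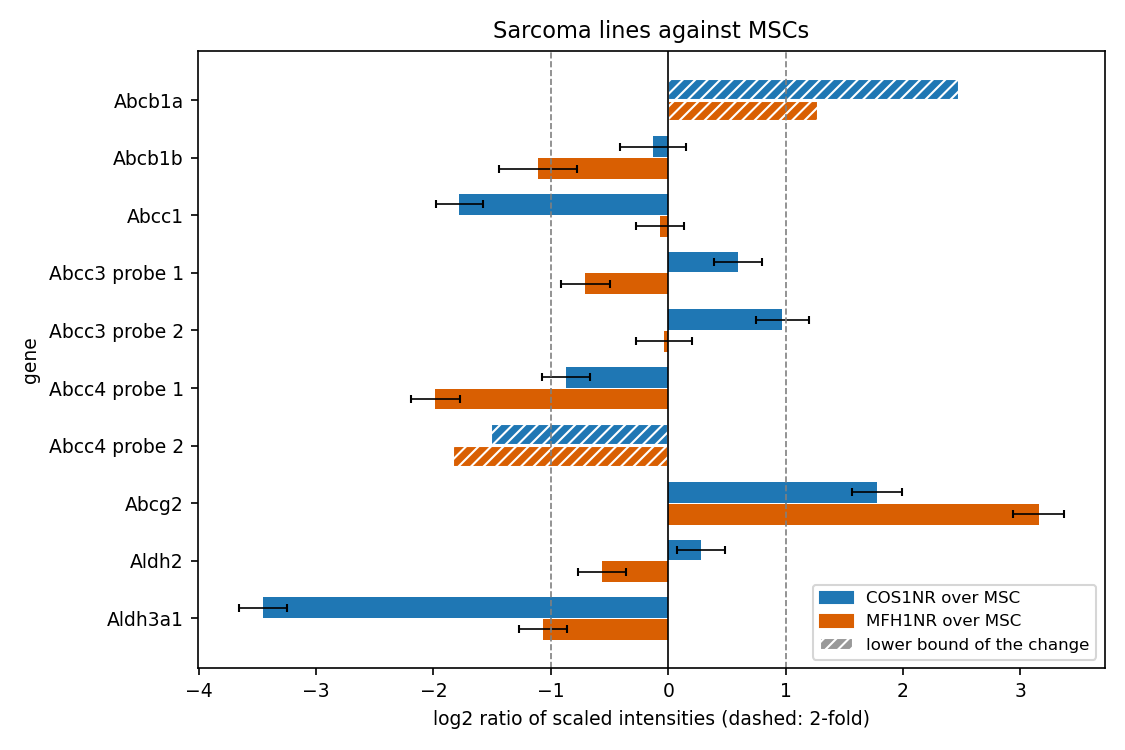
Log2 ratio of COS1NR and of MFH1NR to MSCs for each probe of the 8 genes with a ratio; error bars are the software's error carried to the ratio, hatched bars are lower bounds of the change, and dashed lines mark 2-fold. Abcg2 and Abcb1a point to the right in both lines and Abcc4 and Aldh3a1 to the left, whereas Abcc3 probe 1 and Aldh2 point to the right in COS1NR and to the left in MFH1NR.

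Aldh3a1, a cytosolic enzyme that oxidizes aromatic and medium-chain aldehydes and is known from the cornea and stomach, was among the bright spots of all 3 arrays. It gave 7364% ± 736 in MSCs, 674% ± 67.4 in COS1NR and 3511% ± 351 in MFH1NR. The level in COS1NR was 10.9-fold lower than in MSCs, with a log2 ratio of −3.45 ± 0.20. In MFH1NR it was 2.10-fold lower than in MSCs and 5.21-fold higher than in COS1NR. The difference from MSCs fell short of 2-fold with no scaling, median, quantile and spike-in scaling, at log2 ratios between −0.85 and −0.31. The ratio of Aldh3a1 in COS1NR to MSCs was farther from 1 than the other ratios of the 10 genes that are not bounds. The log2 ratio of Abcg2 in MFH1NR to MSCs was farther with no scaling, at 3.91 against −3.06, and with median scaling, at 3.37 against −3.29.

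Aldh2, the mitochondrial enzyme that clears acetaldehyde, was bright on every array. It gave 3318% ± 332 in MSCs, 4029% ± 403 in COS1NR and 2245% ± 224 in MFH1NR. The log2 ratio to MSCs was 0.28 ± 0.20 in COS1NR and −0.56 ± 0.20 in MFH1NR, both short of 2-fold. MFH1NR was 1.79-fold lower than COS1NR.

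Aldh1a1 and Aldh1a3 make retinoic acid from retinal and are the ALDHs most often linked to the activity by which stem-like cells are sorted. Neither was well above background on any array. In the order MSCs, COS1NR and MFH1NR, Aldh1a1 gave levels of 1.04%, 0.77% and 0.92%, and Aldh1a3 gave levels of 0.66%, 0.84% and 0.65%. All 6 levels lie under the lowest level called well above background on their array, so that no order can be read and no ratio is given. Each of these genes was read from 1 probe. The related enzyme Aldh1a2 was not well above background on any array either.

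Between the sarcoma lines, 3 of the 8 genes were at least 2-fold higher in MFH1NR than in COS1NR, namely Abcc1, Abcg2 and Aldh3a1, where 12.4% of all 9422 genes tested were. At least 2-fold lower were also 3 of the 8, namely Abcb1a, Abcc3 and Abcc4, where 15.1% of all genes were. Abcb1b, at 1.98-fold, and Aldh2 were less than 2-fold apart. The median log2 ratio of the 8 was −0.91, beside −0.08 over all genes. With no scaling or with scaling by the arrays' spike-in probes, the 3 lower genes were no longer 2-fold apart, while the 3 higher ones were. Of all genes, 19.9% were at least 2-fold higher in MFH1NR with no scaling and 34.9% with spike-in scaling, so that the 3 of 8 lie near the share of all genes under the latter. At least 2-fold lower were 10.2% of all genes with no scaling and 7.11% with spike-in scaling.

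The ratios to MSCs depend on how the arrays are scaled, since the median log2 ratio over all genes moved from 0.10 to 0.49 in COS1NR and from 0.02 to 0.77 in MFH1NR when no scaling was applied. In MFH1NR with no scaling, 3 ratios changed sign, Abcc1 from −0.07 to 0.68, Abcc3 from −0.71 to 0.05 and Aldh2 from −0.56 to 0.19. The higher levels of Abcg2 and Abcb1a in both lines, the lower Abcc4 in MFH1NR and the lower Abcc1 and Aldh3a1 in COS1NR stayed at least 2-fold under all 4 other scalings shown.

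**Figure D3:**
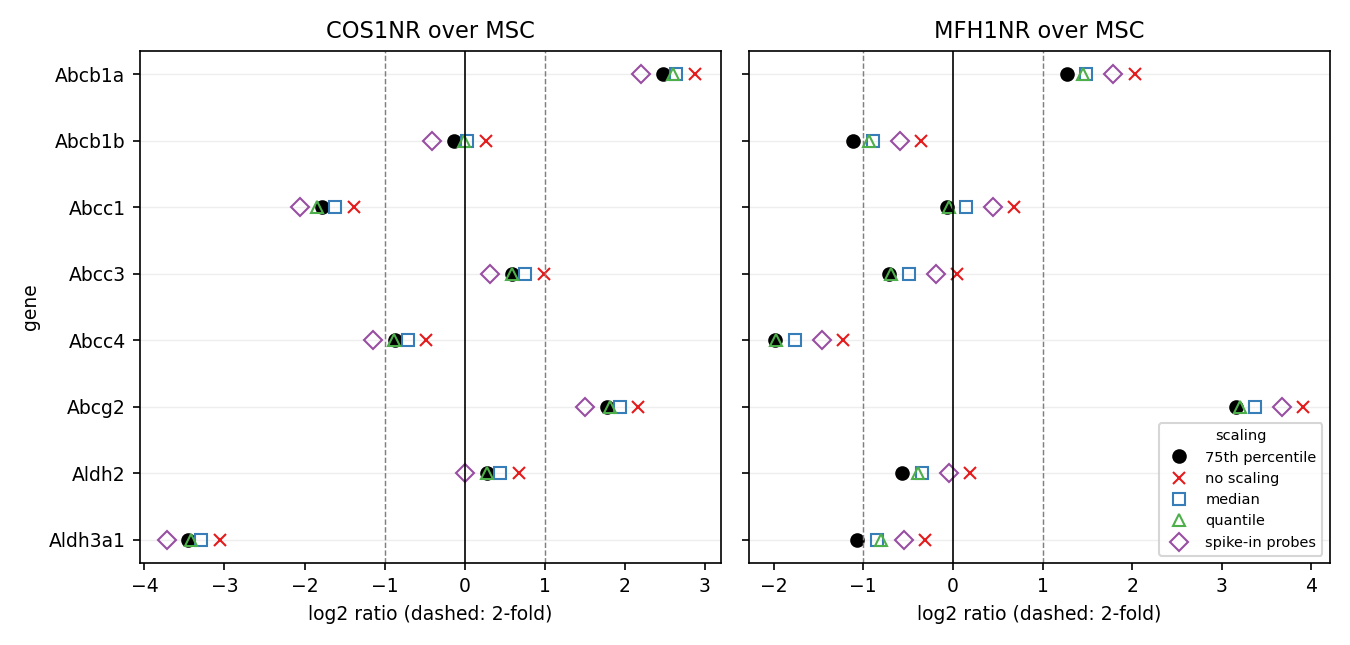
Log2 ratio of COS1NR (left) and MFH1NR (right) to MSCs for the 8 genes under scaling by the 75th percentile and 4 alternatives; each symbol is 1 scaling and dashed lines mark 2-fold. The symbols lie farthest to the right with no scaling, where the symbol of Aldh3a1 lies at −0.31 and that of Abcg2 at 3.91.

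The other ABC transporters were read from a list of 37 genes, of which 32 had a probe and 25 were well above background on at least 1 array. In COS1NR, 6 of 24 tested were at least 2-fold higher than in MSCs and 3 at least 2-fold lower, beside 20.6% and 20% of all genes, with a median log2 ratio of 0.59 beside 0.10 over all genes. In MFH1NR, 3 of 25 were higher and 3 lower, beside 19.3% and 21.6% of all genes, with a median of −0.08. With no scaling, 11 were higher and 2 lower in COS1NR and 9 higher and 3 lower in MFH1NR, where the median turned to 0.67 beside 0.77 over all genes. Of all genes with no scaling, 32.5% were higher and 14.8% lower in COS1NR, and 41.4% were higher and 13.0% lower in MFH1NR. Higher in both lines were Abcc2, Abcb4 and Abca2, but in COS1NR none of the 3 stayed 2-fold higher in every alternative, with log2 ratios of 0.99 for Abcc2 and 0.65 for Abcb4 by normexp and of 0.89 for Abca2 by spike-in scaling. Abcc2, a relative of Abcc1 that exports conjugates into bile and urine, was 3.20-fold higher in COS1NR and 14.6-fold higher in MFH1NR. Abcb4, the neighbour of Abcb1b, was 2.64-fold and 5.69-fold higher, an order of lines opposite to that of Abcb1a. Abca2, a transporter of sterols and lipids, was 2.24-fold and 3.31-fold higher. Abcc9, the regulatory subunit of a potassium channel and not a drug pump, was well above background in MSCs alone, with levels at least 63.7-fold (COS1NR) and at least 80.0-fold (MFH1NR) lower in the lines. Abcg1, which moves cholesterol out of cells, was 3.14-fold higher than in MSCs in COS1NR, while in MFH1NR it was at least 66.9-fold lower.

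The other ALDH enzymes were 16 genes, of which 10 had a probe and 9 were tested. In COS1NR, Aldh3b1 and Aldh1b1 were 3.70-fold and 2.03-fold higher than in MSCs, and Aldh1l1, which uses a folate, was at least 15.0-fold lower and Aldh4a1, an enzyme of proline breakdown, 2.07-fold lower, so that 2 of the 9 were higher and 2 lower, beside 20.6% and 20% of all genes. In MFH1NR, 0 of the 9 were at least 2-fold higher and 1 was lower, Aldh9a1 by 2.07-fold, beside 19.3% and 21.6% of all genes. With no scaling, 2 were higher and 0 lower in MFH1NR, beside 41.4% and 13.0% of all genes. Aldh1l1 in MFH1NR was at 0.748 times the level in MSCs, so that it shared with Aldh3a1 a lower level in COS1NR and a smaller difference in MFH1NR. The medians were −0.32 in COS1NR and −0.41 in MFH1NR, beside 0.10 and 0.02 over all genes, and 0.07 and 0.34 with no scaling, beside 0.49 and 0.77. Aldh1b1, Aldh4a1 and Aldh9a1, all close to 2-fold, fell short of it under at least 1 other scaling.

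**Figure D4:**
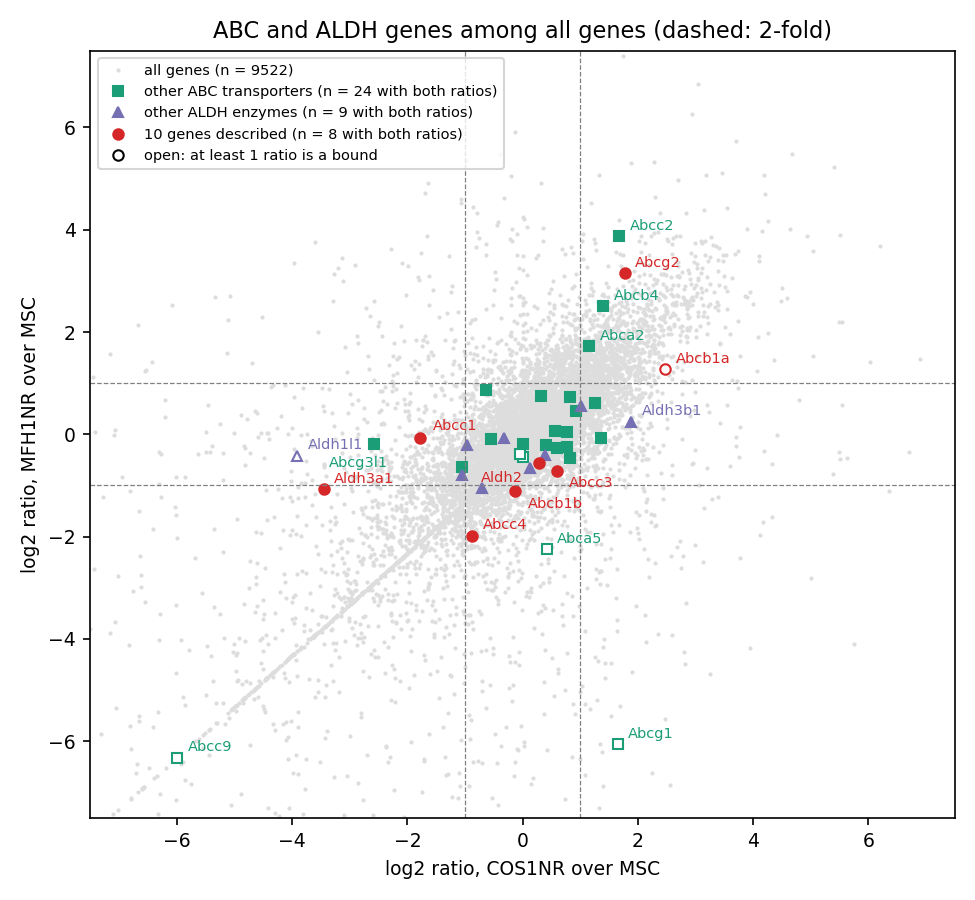
Log2 ratio to MSCs in COS1NR (x axis) and MFH1NR (y axis) for all 9522 genes with both ratios (gray), the 8 of the 10 genes described (red), 24 other ABC transporters (green) and 9 other ALDH enzymes (purple); open symbols have a bound, dashed lines mark 2-fold, both axes share the MSC array, and 108 genes lie outside the axes. Abcg2 lies beside Abcc2 at the upper right, Aldh3a1 at the left beside Aldh1l1, and Abcg1 at the lower right.

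Around the ALDHs, the genes that carry and convert retinoids were read from a list of 22, of which 17 had a probe. In COS1NR 2 of 12 were at least 2-fold higher than in MSCs and 4 lower, and in MFH1NR 1 of 11 was higher and 5 lower. Of all genes, 20.6% were higher and 20% lower in COS1NR, and 19.3% and 21.6% in MFH1NR. With no scaling, 4 were higher and 3 lower in COS1NR and 3 higher and 4 lower in MFH1NR, beside 32.5% and 14.8%, and 41.4% and 13.0%, of all genes. The medians of −0.06 and −0.52 turned to 0.33 and 0.23 with no scaling, beside 0.49 and 0.77 over all genes. Genes lower in both lines included Dhrs3, which turns retinal back to retinol, by 3.99-fold and 3.94-fold in COS1NR and MFH1NR, and Adh7, a retinol dehydrogenase, by 2.09-fold and 6.29-fold. Adh7 in COS1NR fell short of 2-fold with no scaling, median scaling and normexp, at log2 ratios of −0.67, −0.90 and −0.82. Of the regulators of efflux and ALDH genes, 3 of 12 were higher and 3 lower in COS1NR and 0 of 12 higher and 5 lower in MFH1NR, beside the same shares of all genes. The medians were 0.26 and −0.56, beside 0.10 and 0.02 over all genes. With no scaling the counts were 5 and 3 in COS1NR and 2 and 5 in MFH1NR, beside 32.5% and 14.8%, and 41.4% and 13.0%, of all genes, and the medians were 0.66 and 0.19. Cyp1b1 and Cyp1a1, targets of the aryl hydrocarbon receptor as Aldh3a1 is, were lower in both lines, Cyp1b1 by 131-fold and 690-fold and Cyp1a1 by at least 7.64-fold and at least 9.60-fold. Ppara, a receptor for fatty acids, lacked the call in MSCs, and its levels in COS1NR and MFH1NR were higher by at least 2.55-fold and at least 1.48-fold, the former falling from a log2 ratio of 1.35 to 0.48 with normexp. Nfe2l2, the factor that acts on antioxidant response elements, was 2.65-fold lower in COS1NR and at 0.786 times the level of MSCs in MFH1NR.

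Genes of uptake and of the targets of sarcoma drugs gave 6 of 18 higher and 5 lower in COS1NR and 8 of 18 higher and 5 lower in MFH1NR, beside 20.6% and 20%, and 19.3% and 21.6%, of all genes. With no scaling the counts were 7 and 4 in COS1NR and 9 and 3 in MFH1NR. Of all genes, 32.5% and 14.8%, and 41.4% and 13.0%, were so. With spike-in scaling they were 5 and 7, and 9 and 3, beside 14.5% and 25.0%, and 33.6% and 15.0%, of all genes. The medians of −0.11 and 0.18 came to 0.28 and 0.94 with no scaling, beside 0.49 and 0.77 over all genes, and to −0.07 and −0.13 with normexp, beside 0.03 and −0.06. Slco2a1, a prostaglandin carrier, was lower by at least 12.9-fold (COS1NR) and at least 16.1-fold (MFH1NR), and Atp7a, a copper pump, 3.66-fold and 6.14-fold lower. Genes higher in both lines included Slc19a1, Slc31a1, Tyms and Gstp1, at between 2.42-fold and 7.36-fold.

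The labels of the cells were read against markers. Of the markers of MSCs, Nt5e, Thy1, Eng and Cd44 were all well above background in MSCs. Nt5e and Eng were lower in both lines, Nt5e by 8.58-fold in COS1NR and 5.69-fold in MFH1NR, and Eng by at least 25.1-fold and at least 31.5-fold. Thy1 lacked the call in COS1NR, at least 124-fold under the MSC level, and was at 0.561 times the MSC level in MFH1NR. Cd44 was at 0.672 and 0.525 times. Of 8 tested genes of a stem-like state, a list that also holds these 4 markers, 0 were at least 2-fold higher in COS1NR and 5 lower, and in MFH1NR 1 was higher and 4 lower, beside 20.6% and 20%, and 19.3% and 21.6%, of all genes. In MFH1NR, 2 were lower with no scaling or with spike-in scaling, beside 13.0% and 15.0% of all genes. All 15 markers of macrophages were also well above background in the MSC array, at a summed level of 170 times the array's 75th percentile against 9.67 in COS1NR and 4.72 in MFH1NR, and each was at least 2-fold lower in both lines (13 of the 15 with no scaling). The osteoclast list held 6 markers, of which 4 had a probe, and Calcr was not well above background on any array. The 3 tested were at least 2-fold lower in both lines, where 13.6% of all genes were. Summed levels of the list were 67.1 in MSCs against 0.21 in COS1NR and 7.33 in MFH1NR. In MFH1NR, Ctsk gave an intensity of 7209 of the summed 7285. The part of such cells in the levels of Aldh3a1, Abcc4 or any gene above that was higher in MSCs was not tested. Of the adipocyte markers, 3 of 4 tested were at least 2-fold higher in COS1NR than in MSCs, and 0 were well above background in MFH1NR. Of the 8 markers of fibroblasts and stromal cells, 7 were at least 2-fold lower in COS1NR and 4 in MFH1NR. Of the osteoblast markers, 4 of 5 tested were at least 2-fold lower in COS1NR than in MSCs, and in MFH1NR 3 of 6 were lower and 2 higher. Beside these marker counts, 20.6% of all genes were higher and 20% lower in COS1NR, and 19.3% and 21.6% in MFH1NR. In RNA from a whole culture, fewer cells of a type and less RNA per cell cannot be told apart.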

How the data were processed

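Total RNA of COS1NR, MFH1NR and MSCs was labeled with Cy3 and hybridized to 1 Agilent whole rat genome array each. Per the file headers, the authors ran Agilent Feature Extraction 10.5.1.1 (the labels list version 9.1), which subtracted the background from each intensity and detrended the array. The deposited intensities carry no scaling between arrays, and the series table held equal values for 3 of 3 arrays.

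Control spots and outlier spots (187 to 217 per array) were left out, and 0 spots were saturated. The log2 intensity was taken relative to each array's 75th percentile. Of 41012 probes, 40816 were kept, and 16745 of these were named by matching their RefSeq accession to a GRCr8 gene table. A gene was read from its probe of highest mean. The array design was annotated on an older build, so no gene coordinates besides RefSeq promoter windows are given. A ratio with 1 side not well above background is a bound, and with both sides there is none. Genes at least 2-fold apart were counted. There is no test, since each cell type has 1 array, and the number of arrays limits the precision, as do the scaling and the slide. Spots of the same probe had a median SD of 0.05 to 0.06 on the log2 scale.

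The genes, the gene lists and the settings were chosen with earlier results of these data known. Named besides the 10 genes are, by size of the mean log2 ratio of both lines to MSCs, the 5 leading genes of the other ABC and ALDH lists and the 3 leading genes of the retinoid, regulator, drug and stem-like lists, and 4 markers of MSCs, except that some genes are not reported here. Genes named outside this rule, chosen after their values were seen, are Nfe2l2, Aldh1a2, Slc19a1, Slc31a1, Tyms, Gstp1, Calcr, Ctsk and those of the closing section. The list comparison used the median over genes, with no set test. The alternatives tried were quantile normalization, scaling by the median, by the 75th percentile over probes well above background on all arrays or not at all, the series table, other probes of a gene, other filters on dim probes and thresholds of 3-fold and 1.5-fold. Added after the data were seen were normexp with an offset of 50 on the median signal and scaling by 7 spike-in probes. Steps were tested on simulated data. Software was Python 3.11.15, numpy 2.4.6, pandas 2.3.3, matplotlib 3.10.9, R 4.3.3 and limma 3.58.1.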

Additional observations from a re-analysis of the deposited data

Results flagged for a closer look

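Among the 10 genes and the leading genes of each list by size of ratio, 3 had a ratio to MSCs above 0 in 1 sarcoma line and below 0 in the other, with 1 array each, and the difference was not tested. Other genes of the lists also lay on opposite sides. Abcg1, which moves cholesterol out of cells, had a log2 ratio of 1.65 in COS1NR and at most −6.06 in MFH1NR, and that of MFH1NR to COS1NR was at most −7.72. Abcc3 had log2 ratios of 0.59 and −0.71, and the ratio of MFH1NR to COS1NR was −1.30. Its dimmer probe gave 0.97 and −0.03, so that the sign in MFH1NR rests on the brighter probe by more than the software's error. Aldh2 had log2 ratios of 0.28 and −0.56, and the ratio of MFH1NR to COS1NR was −0.84. With no scaling, Abcc3 and Aldh2 came to 0.05 and 0.19 in MFH1NR, above 0 as in COS1NR.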

How the results depend on the processing

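No paired analysis was possible because each cell type has 1 array, and for the same reason no replicate could be left out. The planned normexp correction on the mean signal was not run, as that column is not in the files used here, and the median signal took its place. Of 78 counts of genes at least 2-fold apart under 13 alternatives, 64 stayed within 1.5 times the main count. The counts from the series table are among these and could not differ, since it holds equal values. Without bounds and filter, only genes with a dim spot could change a count. The count lower in MFH1NR than in MSCs went from 3 to 1 with no scaling, median scaling, quantile normalization, spike-in scaling and at 3-fold. The count lower in MFH1NR than in COS1NR went from 3 to 0 with no scaling, with spike-in scaling and at 3-fold, to 1 with normexp, and to 5 at 1.5-fold. The count higher in MFH1NR than in MSCs went from 2 to 1 with normexp, at 3-fold and over genes well above background on all arrays, a filter that Abcb1a does not pass, and that filter also took the count higher in COS1NR from 2 to 1. Of 15 ratios at least 2-fold apart, 15 kept their sign and 9 stayed at least 2-fold in all alternatives run: Abcb1a, Abcc1 and Aldh3a1 in COS1NR over MSCs, Abcc4 in MFH1NR over MSCs, Abcc1 and Aldh3a1 in MFH1NR over COS1NR, and Abcg2 in all 3 comparisons. Some alternatives could not move a ratio: the series table held equal values, and the filters on dim probes left ratios without a bound unchanged. A bound is cut at 0, so that its sign could not change under the scalings. The log2 ratio of Abcb1a in MFH1NR over MSCs was 0.29 with normexp. Abcc4 in COS1NR over MSCs, short of 2-fold here, came to at most −1.51 (a bound) by its dimmer probe and −1.33 by the mean of its probes. It was −1.15 with spike-in scaling and −1.01 with the 75th percentile over probes well above background on all arrays. Over all genes, the share of 2-fold calls that were higher was 50.8% in COS1NR over MSCs, 47.2% in MFH1NR over MSCs and 45.2% in MFH1NR over COS1NR. It was 68.8%, 76.1% and 66.1% with no scaling and 36.8%, 69.1% and 83.1% with spike-in scaling. With median scaling it was 58.9% in COS1NR over MSCs and 57.2% in MFH1NR over MSCs. The cause of these shifts was not tested.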

Other observations

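Among the genes around the transporters and ALDHs, some lay on opposite sides of MSCs in the 2 sarcoma lines. The genes named here were chosen after their values were seen. Rbp4, the carrier of retinol in blood, was 15.4-fold higher in COS1NR than in MSCs and 18.0-fold lower in MFH1NR. Crabp2, which brings retinoic acid to its receptors, was 7.82-fold lower in COS1NR and 1.51-fold higher in MFH1NR. Pparg, the receptor that drives adipocyte formation, was higher by 7.15-fold in COS1NR, while in MFH1NR it was at least 9.79-fold lower, beside 3 of 4 adipocyte markers tested that were higher in COS1NR. Epas1, a factor of the response to low oxygen, was higher by 3.13-fold in COS1NR, while in MFH1NR it was at least 6.17-fold lower, and Hif1a was 1.39-fold higher and 4.52-fold lower.

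Genes that act on anthracyclines and antifolates also differed. Cbr3, a carbonyl reductase that acts on anthracyclines, gave log2 ratios to MSCs of −0.91 (COS1NR) and 2.18 (MFH1NR). Ggh, which removes glutamates from folates and methotrexate, was 1.46-fold higher in COS1NR and 5.75-fold higher in MFH1NR, and Slco4a1, a carrier of organic anions, was at 1.05 times the MSC level in COS1NR and 8.53-fold lower in MFH1NR.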
